A study of Mus musculus with 4 samples.

Results

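Pkm, Ldha, Slc16a1, Slc16a3 and Pdk1 are 5 genes that make pyruvate, turn it into lactate, carry lactate across the plasma membrane or keep pyruvate from the citric acid cycle. They were taken by symbol from the 32285 genes of the count matrices, where each of the 5 symbols stands for 1 gene. The cells come from mice, in work on glycans and checkpoint blockade against ovarian tumours, and were profiled by droplet single-cell RNA-seq with counting from the 3' end of each transcript. There were 4 libraries, 1 per group, all labelled as lymph node. They were the combination of 2DG and aPDL1, 2DG alone, aPDL1 alone, and a control, labelled ctrl. 2DG is 2-Deoxy-D-glucose, a glucose analogue that hexokinase phosphorylates and that glycolysis cannot carry further, and that also interferes with protein glycosylation. aPDL1 is named only by that label, and no dose, schedule or number of mice is given with the samples. The design text speaks of young and aged animals, the samples carry no age, and so a difference of age between libraries cannot be told apart from treatment.

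Lactate is the end product of glycolysis in cells that do not pass their pyruvate on to the mitochondrion. Pkm encodes pyruvate kinase, which makes pyruvate in the last step of glycolysis, and its M1 and M2 forms are not separated by counts from the 3' end. Ldha encodes the A subunit of lactate dehydrogenase, which reduces pyruvate to lactate and restores the NAD+ that glycolysis needs. Slc16a1 encodes MCT1, a monocarboxylate transporter found in many cell types that can carry lactate in or out, and Slc16a3 encodes MCT4, which serves mainly lactate export in strongly glycolytic cells. Pdk1 encodes pyruvate dehydrogenase kinase 1, which inactivates the pyruvate dehydrogenase complex and so keeps pyruvate from entering the citric acid cycle. Pkm, Ldha, Slc16a3 and Pdk1 are known targets of hypoxia-inducible factor 1, and myeloid cells of tumours are a known site of their expression.

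All 5 genes lie on the plus strand of GRCm38, the build of the files. Pkm (ENSMUSG00000032294) spans chr9:59656368-59679375, Ldha (ENSMUSG00000063229) chr7:46841475-46855627 and Slc16a1 (ENSMUSG00000032902) chr3:104638668-104658462. Slc16a3 (ENSMUSG00000025161) spans chr11:120948480-120960868 and Pdk1 (ENSMUSG00000006494) chr2:71873224-71903858. The bases before the RefSeq start sites of 4 of them (GRCm38.p6) are shown, as genes of the response to low oxygen were also read. Capitals mark ACGTG or GCGTG, the core of the element that hypoxia-inducible factors bind, on either strand, with overlapping matches joined into 1 stretch. The sequences run 5' to 3' and end 1 base before the start site, except for Slc16a3, where the last 14 bases belong to an exon of another Slc16a3 transcript and are left out.

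Ldha: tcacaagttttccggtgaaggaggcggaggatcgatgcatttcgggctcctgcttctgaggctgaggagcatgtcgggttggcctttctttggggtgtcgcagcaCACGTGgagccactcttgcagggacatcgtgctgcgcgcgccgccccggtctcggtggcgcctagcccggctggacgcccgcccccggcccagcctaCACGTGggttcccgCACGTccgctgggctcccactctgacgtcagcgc
Pdk1: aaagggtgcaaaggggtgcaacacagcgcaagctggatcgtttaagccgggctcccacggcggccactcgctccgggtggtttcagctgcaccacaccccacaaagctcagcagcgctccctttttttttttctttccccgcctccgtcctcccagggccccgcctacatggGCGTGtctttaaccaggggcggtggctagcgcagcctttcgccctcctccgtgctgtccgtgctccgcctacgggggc
Slc16a3: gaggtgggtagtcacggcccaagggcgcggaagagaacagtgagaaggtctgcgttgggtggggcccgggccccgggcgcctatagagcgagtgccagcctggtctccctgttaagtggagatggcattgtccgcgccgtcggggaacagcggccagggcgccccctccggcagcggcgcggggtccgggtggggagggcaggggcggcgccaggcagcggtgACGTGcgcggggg
Slc16a1: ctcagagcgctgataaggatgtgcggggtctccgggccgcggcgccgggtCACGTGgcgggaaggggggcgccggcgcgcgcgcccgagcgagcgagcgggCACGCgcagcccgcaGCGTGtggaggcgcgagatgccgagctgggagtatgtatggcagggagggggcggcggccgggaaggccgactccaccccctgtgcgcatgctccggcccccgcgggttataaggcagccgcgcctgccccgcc

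The Ldha sequence (chr7:46845554-46845803) holds 3 stretches, which begin 145, 48 and 34 bases before the start, and a second Ldha start site (chr7:46846832-46847081, not printed) holds 1. The Pdk1 sequence (chr2:71872974-71873223) holds 1, at 78 bases. The window of a second Pdk1 start site (chr2:71874654-71874903, not printed) lies wholly in exons of Pdk1 and holds 0. Slc16a3 (chr11:120948817-120949052) holds 1 in the printed bases, at 27 bases, and 1 more at 14 bases in the exonic end. Slc16a1 (chr3:104638414-104638663) holds 3, at 200, 149 and 134 bases. Among 32841 windows of the same 250 bases over 27018 genes, 38.6% held at least 1 stretch, 13.5% at least 2 and 4.65% at least 3, so that a match alone is common, and it describes letters, not a bound site. The windows before the 2 Pkm start sites lie largely in exons of Pkm transcripts and are not printed. The first holds 0 stretches and the second holds 1, at 75 bases.

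The libraries held between 61859753 and 73885214 UMIs, the counted molecules, with a median of 5632 to 6243 UMIs per barcode. After filters, 7369 to 8525 cells per library were kept, and 83.1% to 87.0% of them were given a class from lineage markers, none of which is one of the 5 genes. T and B cells made up, of all classed cells, 41.8% in the combination, 45.1% with 2DG and 41.6% with aPDL1, against 7.13% in ctrl. Neutrophils made up 3.79% in the combination, 5.18% with 2DG and 3.92% with aPDL1, against 45.2% in ctrl. Monocytes or macrophages made up 44.0% in the combination, 38.1% with 2DG and 43.5% with aPDL1, against 42.6% in ctrl. B cells alone made up 6.17%, 1.93% and 3.43% in the same order, against 1.12% in ctrl. The ctrl library thus stands apart in lymphocytes and neutrophils, and its few lymphocytes go against the lymph node label. The high monocyte or macrophage and low B cell shares sit poorly with that label in all 4 libraries. Any pair of libraries shared 22 to 30 cell barcodes. With 1 library per group no difference has a replicate check and no test or p-value is given. Levels are CPM, UMIs of the gene per 1000000 UMIs of the class, and all intervals are 95% intervals that cover counting error only. Counting from the 3' end takes no account of transcript length, so levels are compared within a gene and never between genes.

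By medians over the libraries, monocytes or macrophages and neutrophils had the highest Pkm and Slc16a3, CD8 T cells and monocytes or macrophages the highest Slc16a1, and B cells had the lowest medians of Pkm, Ldha and Slc16a3. Over 10 classes, the median Pkm level of the 4 libraries was 1008 CPM in monocytes or macrophages (range 939 to 1184) and 895 CPM in neutrophils (806 to 1060), 2 ranges that overlap. Regulatory T cells came next at 589 CPM (499 to 734), below both without overlap, and cDC1, cDC2, CD4 T cells without Foxp3 and CD8 T cells followed at medians of 432, 415, 413 and 369 CPM, with overlapping ranges. Migratory dendritic cells, NK cells and B cells closed the order at 235, 199 and 129 CPM. The spread over libraries within a class was thus small beside the distance from myeloid cells to B cells.

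Ldha had a flatter order. Its medians were 455 CPM in monocytes or macrophages (399 to 649), 393 CPM in cDC1, 383 CPM in neutrophils (274 to 904), 379 CPM in regulatory T cells, 306 CPM in cDC2, 281 CPM in CD8 T cells and 276 CPM in CD4 T cells without Foxp3, and neighbouring ranges overlapped throughout. NK cells (168 CPM) lay below these without overlap, followed by migratory dendritic cells (102 CPM) and B cells (87.6 CPM). Neutrophils changed place with the library. Their Ldha level over that of monocytes or macrophages was at a log2 ratio of -0.12 in the combination, -0.66 with 2DG, -0.25 with aPDL1 and 0.48 in ctrl, and the interval spans 0 in the combination only.

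The 2 lactate transporters were spread over the classes in different ways. Slc16a3 was highest in neutrophils, at a median of 326 CPM (276 to 359), and monocytes or macrophages followed at 184 CPM (157 to 216), then cDC2 at 73.0 CPM (47.6 to 79.7), each without overlap. In neutrophils it was 1.77 (combination), 2.11 (2DG), 1.76 (aPDL1) and 1.41 (ctrl) times as high as in monocytes or macrophages. In monocytes or macrophages it was 10.4 (combination), 9.50 (2DG), 7.78 (aPDL1) and 8.03 (ctrl) times as high as in CD8 T cells. By medians Slc16a1 was highest in CD8 T cells, at 23.7 CPM (19.9 to 28.7), with monocytes or macrophages at 19.5 CPM (18.7 to 23.2). In ctrl, regulatory T cells were higher, at 49.0 CPM from 22 UMIs in 55 cells, though their median was 13.9 CPM (7.34 to 49.0). In neutrophils it was near the bottom, at 2.58 CPM (2.27 to 3.19). CD8 T cells exceeded neutrophils in Slc16a1 by a log2 ratio of 2.82 (combination), 3.2 (2DG), 2.58 (aPDL1) and 3.37 (ctrl). The class that held most Slc16a3 mRNA therefore held little Slc16a1 mRNA in each of the 4 libraries.

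Among T cells, regulatory T cells carried more Slc16a3 than other CD4 T cells in every library. They had 48.6 (combination), 54.6 (2DG), 49.5 (aPDL1) and 55.7 (ctrl) CPM, against 16.9 (combination), 13.2 (2DG), 25.8 (aPDL1) and 24.7 (ctrl) CPM in CD4 T cells without Foxp3. The ratios were 2.87 (combination), 4.13 (2DG), 1.93 (aPDL1) and 2.26 (ctrl), and all 4 intervals lie above 1. Pkm was higher in regulatory T cells by 1.43 (combination), 1.42 (2DG), 1.62 (aPDL1) and 1.31 (ctrl) times, again with no interval reaching 1. Summed neutrophil markers were at 371 (combination), 348 (2DG), 360 (aPDL1) and 330 (ctrl) CPM in regulatory T cells, against 386 (combination), 149 (2DG), 309 (aPDL1) and 299 (ctrl) CPM in the other CD4 T cells. Monocyte or macrophage markers were at 491 (combination), 371 (2DG), 441 (aPDL1) and 323 (ctrl) CPM, against 107 (combination), 94.7 (2DG), 141 (aPDL1) and 70.9 (ctrl) CPM, and their part was not tested. Lyz2 stood at 0.42% to 0.78% and Csf1r at 0.19% to 1.33% of the monocyte or macrophage level in regulatory T cells. In the other CD4 T cells Lyz2 stood at 0.50% to 0.82% and Csf1r at 0.57% to 0.67% of that level. Slc16a3 stood at 25.0% to 32.1% of it in regulatory T cells and at 7.73% to 13.0% in the other CD4 T cells. Regulatory T cells numbered 118 (combination), 264 (2DG), 157 (aPDL1) and 55 (ctrl).

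Pdk1 was highest in monocytes or macrophages, at a median of 42.2 CPM (25.8 to 49.3), and lowest in migratory dendritic cells (8.19 CPM) and NK cells (7.21 CPM). The classes between them, regulatory T cells, CD4 T cells, B cells, cDC2, CD8 T cells, neutrophils and cDC1, had medians of 32.6 to 19.6 CPM with overlapping ranges. Free RNA from burst cells can lend UMIs to any droplet, so markers of other cells were read in the same way. In CD8 T cells, Lyz2 stood at 0.52% to 1.07% and Csf1r at 0.64% to 0.89% of the monocyte or macrophage level, while Slc16a3 stood at 9.6% to 12.8% and Pdk1 at 39.5% to 62.8%. In neutrophils, Cd3e stood at 0.58% to 1.55% of its T cell level and Slc16a1 at 10.2% to 16.9%. T cells are not its only possible source, as Slc16a1 was at 18.7 to 23.2 CPM in monocytes or macrophages. The 10 monocyte or macrophage markers summed in neutrophils to 538 (combination), 874 (2DG), 770 (aPDL1) and 418 (ctrl) CPM. The whole list of 10 monocyte or macrophage markers summed in CD8 T cells to 360 (combination), 309 (2DG), 369 (aPDL1) and 518 (ctrl) CPM, against 6040 (combination), 5791 (2DG), 5158 (aPDL1) and 4450 (ctrl) CPM in monocytes or macrophages. Ly6c2, on that list, is also known from CD8 T cells. In B cells Slc16a3 stood at 1.52% (combination), 0.886% (2DG), 4.86% (aPDL1) and 11.7% (ctrl) of the monocyte or macrophage level, beside Csf1r at 1.85% (combination), 1.36% (2DG), 2.39% (aPDL1) and 2.8% (ctrl), and is read as background in the combination and 2DG. The part of free RNA in the other low levels was not tested.

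**Figure D1:**
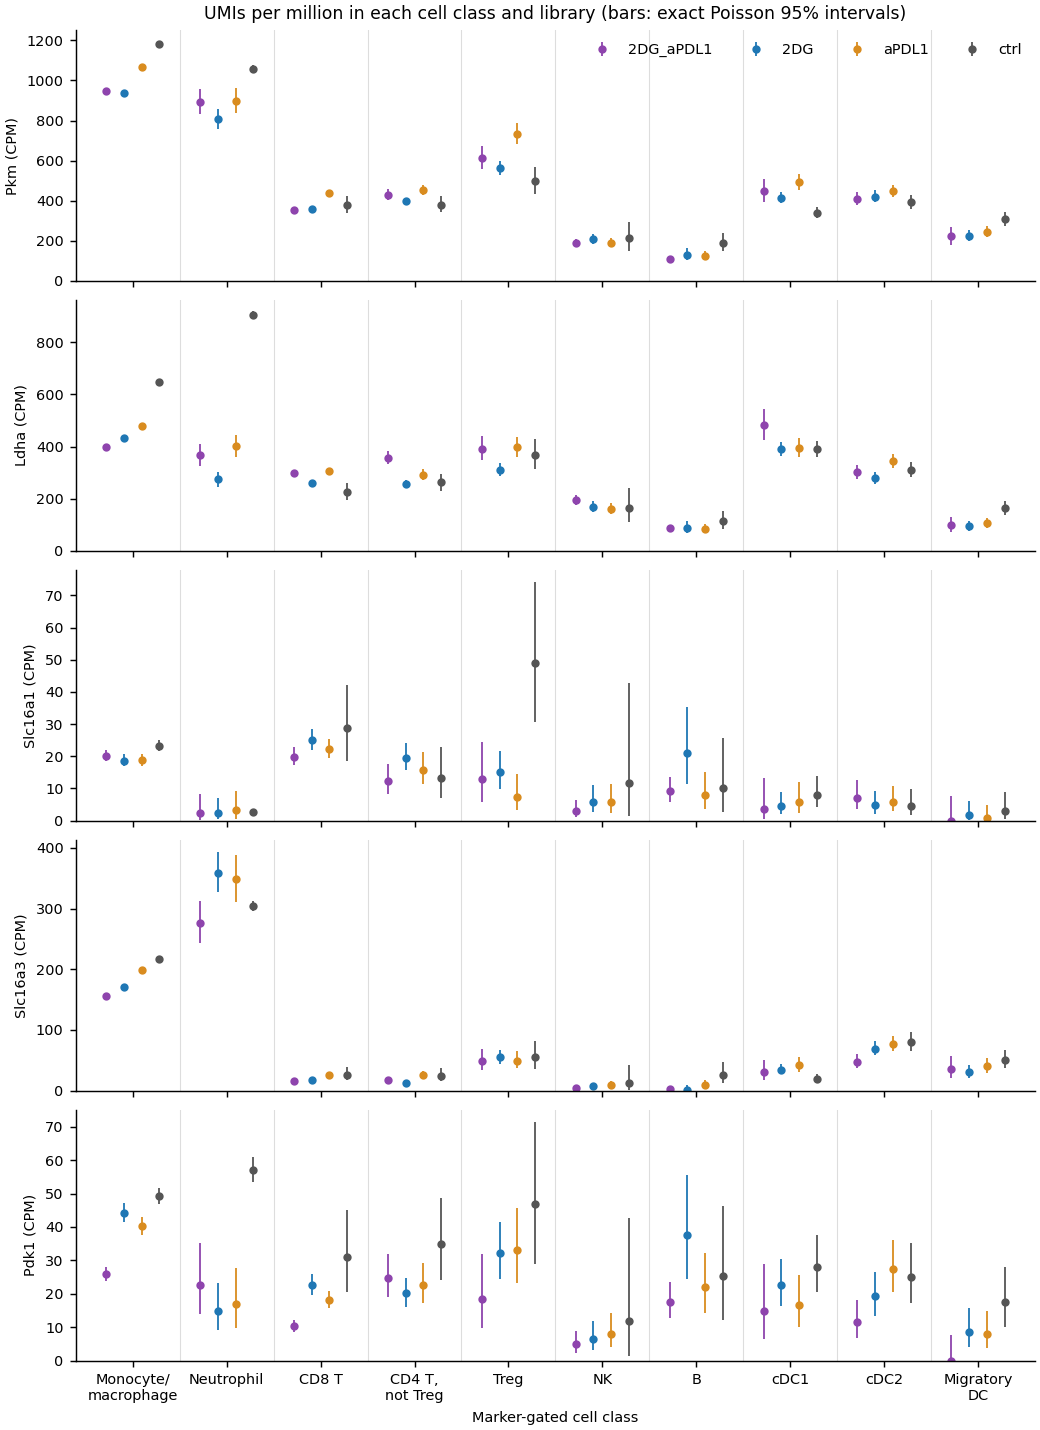
Levels of the 5 genes (CPM over the UMIs of the class) in 10 marker-gated classes, 1 point per library, with exact Poisson 95% intervals for counting error. Slc16a3 is highest in neutrophils and Slc16a1 among the lowest there, and Ldha in ctrl neutrophils (904 CPM) lies well above the other 3 libraries (274 to 400 CPM).

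Neutrophils showed a wide spread of Ldha and Pdk1 between libraries. Ldha was at 366 CPM in the combination (327 to 408, 322 UMIs), 274 CPM with 2DG (246 to 304, 348 UMIs) and 400 CPM with aPDL1 (361 to 443, 376 UMIs), against 904 CPM in ctrl (889 to 919, 14512 UMIs). Pdk1 was at 22.7 CPM in the combination, 14.9 CPM with 2DG and 17 CPM with aPDL1 (20, 19 and 16 UMIs), against 57.1 CPM in ctrl (917 UMIs). Both genes were high in ctrl alone, and no interval of a treated library reached the ctrl interval. Pkm moved less, at 893 CPM in the combination, 806 CPM with 2DG and 898 CPM with aPDL1, against 1060 CPM in ctrl. Slc16a3 did not follow Ldha, at 276 CPM in the combination, 359 CPM with 2DG and 348 CPM with aPDL1, against 304 CPM in ctrl, so that ctrl lay inside the treated range. Slc16a1 was counted from 2 UMIs in the combination and 3 each with 2DG and aPDL1, against 45 in ctrl, and its levels of 2.27 CPM in the combination, 2.36 CPM with 2DG and 3.19 CPM with aPDL1, against 2.80 CPM in ctrl, cannot be ordered at this depth.

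For 2DG over ctrl, Ldha had a log2 ratio of -1.72 (-1.88 to -1.57) and Pdk1 of -1.90 (-2.67 to -1.28), while Pkm was at -0.39 and Slc16a3 at 0.24. For aPDL1 over ctrl, Ldha was at -1.17 (-1.33 to -1.03), Pdk1 at -1.70 (-2.56 to -1.04), Pkm at -0.24 and Slc16a3 at 0.20. A gene was counted when its higher library held at least 50 UMIs, and called when it also differed by at least 1.5-fold. By that rule 2 of the 4 members counted were lower with 2DG, where 17.1% of 8771 genes were lower and 31.5% higher, and 2 of 4 were lower with aPDL1, where 16.8% were lower and 27.7% higher. Of the genes, 3.6% had a lower ratio than Ldha with 2DG, and 6.29% with aPDL1. Pdk1 reached the minimum of 50 UMIs only through ctrl, where it was high, with 19 UMIs with 2DG and 16 with aPDL1, against 917 in ctrl, so that the count describes the members and supports nothing. Neutrophils held 16051962 UMIs in ctrl, against 1271212 with 2DG and 939838 with aPDL1. The shares of all genes thus also hold genes that reached the minimum only through ctrl. Ratios over all genes had medians of 0.24 and 0.16. The 2 comparisons share the ctrl library and are not independent.

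Against each other the treated libraries differed less. The combination over aPDL1 had log2 ratios of -0.13 for Ldha and -0.33 for Slc16a3, with 0 of 3 members called, where 12.9% of genes were called higher and 8.86% lower. The combination over 2DG had 0.42 for Ldha and -0.38 for Slc16a3, again with 0 of 3 called, where 9.75% were called higher and 7.64% lower. Pdk1 had at most 20 UMIs in these pairs and was not counted.

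The make-up of the neutrophils differed too, and 3 states were read from detected markers. Cells with at least 2 of Ccl3, Ccl4 and Cxcl3, a chemokine programme, made up, of all neutrophils, 44.1% in the combination, 27.7% with 2DG and 31.1% with aPDL1, against 25.1% in ctrl. Cells with at least 2 of Retnlg, Il1r2 and Mmp8 made up 18.5% in the combination, 34.3% with 2DG and 32.2% with aPDL1, against 19.9% in ctrl, and cells that met both 8.19% in the combination, 8.13% with 2DG and 10.3% with aPDL1, against 46.0% in ctrl. Median UMIs per neutrophil were 2630 in the combination, 2913.5 with 2DG and 2618 with aPDL1, against 3802 in ctrl, and detection of markers moves with depth.

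Ldha was lower than in ctrl within all 3 states. In the Ccl3 state it was at 528 CPM in the combination, 376 CPM with 2DG and 549 CPM with aPDL1, against 1270 CPM in ctrl, with log2 ratios of -1.26 in the combination, -1.75 with 2DG and -1.21 with aPDL1. In the Retnlg state it was at 206 CPM in the combination, 251 CPM with 2DG and 298 CPM with aPDL1, against 404 CPM in ctrl, with log2 ratios of -0.96, -0.68 and -0.43 in the same order, and in cells of both it was at 478 CPM in the combination, 397 CPM with 2DG and 582 CPM with aPDL1, against 949 CPM in ctrl. Within each library Ldha was 2.54 (combination), 1.5 (2DG), 1.84 (aPDL1) and 3.14 (ctrl) times as high in the Ccl3 as in the Retnlg state. Pkm followed the same order, at 1179 (combination), 958 (2DG), 1085 (aPDL1) and 1240 (ctrl) CPM in the Ccl3 state, against 462 (combination), 746 (2DG), 788 (aPDL1) and 697 (ctrl) CPM in the Retnlg state. Slc16a3 went the other way, with log2 ratios of -0.29 (combination), -0.65 (2DG), -0.42 (aPDL1) and -0.44 (ctrl) of the Ccl3 over the Retnlg state, and its interval spans 0 in the combination. The states in which Ldha and Pkm were high were thus not those with more of the exporter mRNA.

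**Figure D2:**
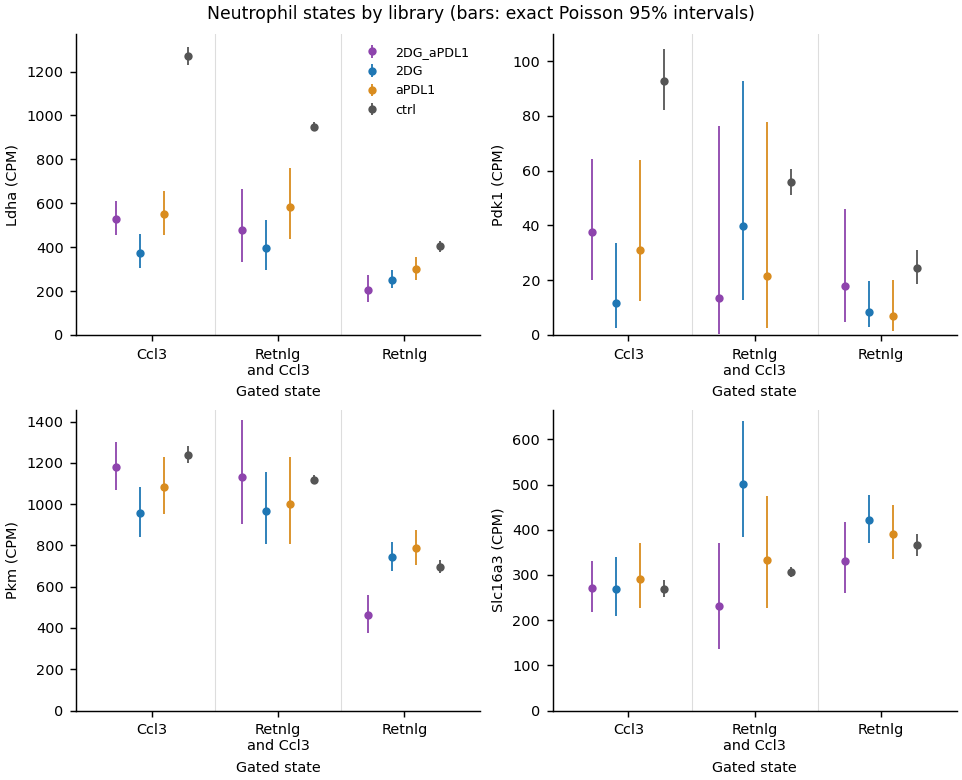
Levels of the members in 3 marker-gated neutrophil states (CPM over the UMIs of the state), 1 point per library with exact Poisson 95% intervals. Ldha in ctrl lies above the 3 treated libraries in each state, while Slc16a3 in ctrl lies within their range or close to it.

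Values of other cell types moved beside these. Summed monocyte or macrophage markers in neutrophils were at 538 CPM in the combination, 874 CPM with 2DG and 770 CPM with aPDL1, against 418 CPM in ctrl, with 10 of 10 markers detected in each library. Summed T cell markers were at 32.9 CPM in the combination, 37.0 CPM with 2DG and 41.5 CPM with aPDL1, against 17.1 CPM in ctrl, with 8 of 8 detected. Erythroid markers were at 0 CPM in the combination, 8.65 CPM with 2DG and 2.13 CPM with aPDL1, against 21.1 CPM in ctrl. Mitochondrial UMIs made up 0.771% in the combination, 0.884% with 2DG and 0.862% with aPDL1, against 0.608% in ctrl. The part of these and of the cell number in the neutrophil results was not tested.

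Differences were smaller in monocytes or macrophages, and Ldha and Pdk1 were again the genes that were called. Ldha was at 399 CPM in the combination (391 to 406), 432 CPM with 2DG (423 to 441) and 477 CPM with aPDL1 (469 to 486), against 649 CPM in ctrl (640 to 657). Pdk1 was at 25.8 CPM in the combination, 44.3 CPM with 2DG and 40.2 CPM with aPDL1, against 49.3 CPM in ctrl. Ldha was highest in ctrl, while Pdk1 was set apart by its low level in the combination (23.9 to 27.9), clear of the intervals of the other 3 libraries. Pkm was at 950 CPM in the combination, 939 CPM with 2DG and 1067 CPM with aPDL1, against 1184 CPM in ctrl, Slc16a3 at 157 CPM in the combination, 170 CPM with 2DG and 198 CPM with aPDL1, against 216 CPM in ctrl, and Slc16a1 at 20.2 CPM in the combination, 18.7 CPM with 2DG and 18.9 CPM with aPDL1, against 23.2 CPM in ctrl. All 5 genes were highest in ctrl. Summed neutrophil markers in this class were at 295 CPM in the combination, 305 CPM with 2DG and 262 CPM with aPDL1, against 583 CPM in ctrl, with 8 of 8 detected in each library. The summed markers of the class itself were at 6040 CPM in the combination, 5791 CPM with 2DG and 5158 CPM with aPDL1, against 4450 CPM in ctrl. The part of either in these values was not tested.

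For 2DG over ctrl the log2 ratio of Ldha was -0.59 (-0.62 to -0.55), and it was the 1 of 5 members called lower, where 8.98% of 11566 genes were lower and 12.1% higher. For aPDL1 over ctrl it was -0.44, and 0 of 5 were called, where 9.39% were lower and 13.2% higher. Pdk1 had a log2 ratio of -0.64 (-0.78 to -0.49) for the combination over aPDL1 and was the 1 of 5 called lower, where 8.0% were lower and 4.45% higher. It had -0.78 (-0.92 to -0.63) for the combination over 2DG, and was the 1 of 5 called lower, where 7.26% were lower and 4.37% higher. Of all genes, 6.51% and 3.45% had a lower ratio than Pdk1 in these 2 comparisons, which share the combination library. The median over the 5 members was -0.33, -0.29, -0.26 and -0.12 for 2DG over ctrl, aPDL1 over ctrl, the combination over aPDL1 and the combination over 2DG, beside medians of 0.11, 0.09, -0.09 and -0.09 over all genes. A count of 0 or 1 among 5 members is not set apart from shares of this size.

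The macrophage states behind these sums differed in share. Cells with both Spp1 and Arg1, which encode osteopontin and arginase 1, made up, of the class, 26.1% in the combination, 32.8% with 2DG and 31.7% with aPDL1, against 64.4% in ctrl, and median UMIs per cell were 7160 in the combination, 7909 with 2DG and 7010.5 with aPDL1, against 10955 in ctrl. Cells with C1q genes and without that pair made up 25.1% in the combination, 24.4% with 2DG and 18.1% with aPDL1, against 15.2% in ctrl, classical monocytes 29.5% in the combination, 20.6% with 2DG and 28.0% with aPDL1, against 12.5% in ctrl, and non-classical monocytes 17.2% in the combination, 19.6% with 2DG and 19.4% with aPDL1, against 6.77% in ctrl. In ctrl the Spp1 and Arg1 pair was also detected in 376 of 3143 neutrophils, 24 of 418 T cells and 13 of 78 B cells. The same classes had it in 2 of 281, 13 of 2639 and 3 of 457 cells in the combination. With 2DG it was 4 of 332, 29 of 2767 and 0 of 124, and with aPDL1 8 of 273, 24 of 2661 and 1 of 239. The part of free RNA in this gate was not tested. The state marked by Spp1 and Arg1 without C1q had the highest Pkm and Ldha of the 5 states in every library. Its Pkm was at 1477 (combination), 1453 (2DG), 1733 (aPDL1) and 1490 (ctrl) CPM, 1.66 (combination), 1.74 (2DG), 1.77 (aPDL1) and 2.27 (ctrl) times the level of C1q macrophages and 2.98 (combination), 3.32 (2DG), 3.42 (aPDL1) and 2.03 (ctrl) times that of non-classical monocytes. Its Ldha was at 624 (combination), 635 (2DG), 751 (aPDL1) and 833 (ctrl) CPM and its Slc16a3 at 253 (combination), 248 (2DG), 297 (aPDL1) and 273 (ctrl) CPM, and both were above C1q macrophages and non-classical monocytes in all 4 libraries.

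Within states the difference from ctrl was not the same. In C1q macrophages Pkm was at 889 CPM in the combination, 833 CPM with 2DG and 980 CPM with aPDL1, against 657 CPM in ctrl, Slc16a3 at 141 CPM in the combination, 147 CPM with 2DG and 178 CPM with aPDL1, against 103 CPM in ctrl, and Ldha at 391 CPM in the combination, 392 CPM with 2DG and 454 CPM with aPDL1, against 364 CPM in ctrl, so that each value was higher in the treated libraries. In non-classical monocytes Ldha was at 218 CPM in the combination, 215 CPM with 2DG and 216 CPM with aPDL1, against 354 CPM in ctrl, and Slc16a3 at 82.1 CPM in the combination, 97.0 CPM with 2DG and 101 CPM with aPDL1, against 178 CPM in ctrl, so that both were lower. In the Spp1 and Arg1 state Slc16a3 in ctrl lay inside the treated range. With each state weighing equally, the count of members called for 2DG over ctrl in the class as a whole was 0 of 5 in place of 1, an alternative added after the shares were seen. The part of the state shares and of the depth in the class values was not tested.

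Pdk1 was lowest in the combination within each of the 5 states. It was at 32.3 (combination), 68.2 (2DG), 46.9 (aPDL1) and 55.5 (ctrl) CPM in the Spp1 and Arg1 state, at 33.5 (combination), 56.7 (2DG), 53.5 (aPDL1) and 55.0 (ctrl) CPM in cells that also had C1q genes, and at 28.0 (combination), 45.2 (2DG), 45.6 (aPDL1) and 34.7 (ctrl) CPM in C1q macrophages. Classical monocytes had 20.7 (combination), 29.5 (2DG), 32.6 (aPDL1) and 37.9 (ctrl) CPM and non-classical monocytes 14.7 (combination), 20.8 (2DG), 23.3 (aPDL1) and 28.8 (ctrl) CPM. The log2 ratio of the combination over 2DG ran from -1.07 to -0.50 over the states, and that over aPDL1 from -0.71 to -0.53, with intervals below 0 except over 2DG in non-classical monocytes (-1.03 to 0.01). The state with the highest Pdk1 differed between libraries, but the place of the combination did not.

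**Figure D3:**
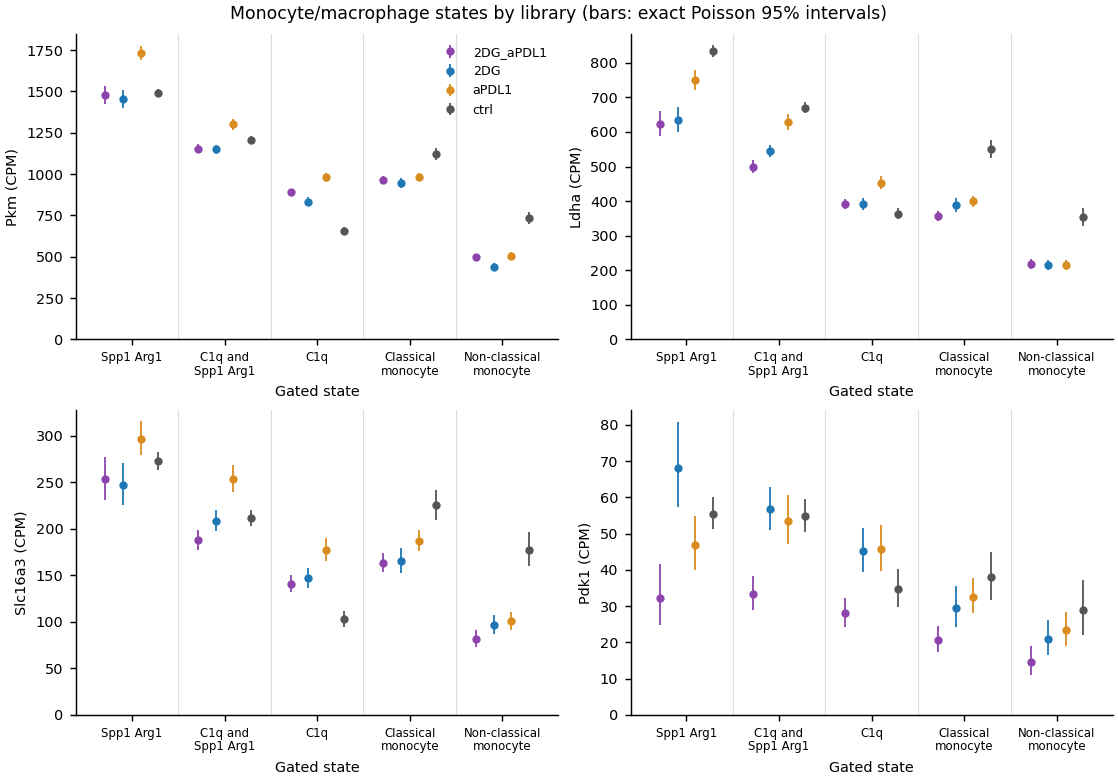
Levels of the members in 5 marker-gated monocyte and macrophage states (CPM over the UMIs of the state), 1 point per library with exact Poisson 95% intervals. Pdk1 is lowest in the combination in every state, and Pkm and Ldha are highest in the state marked by Spp1 and Arg1.

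Genes around the 5 were read from lists chosen with earlier results of these data known, so that their counts describe them and are no independent support. In neutrophils many genes reached the minimum only through ctrl. Against ctrl 8771 genes were tested, but 3456 for the combination over 2DG and 3048 over aPDL1. In each of those pairs 16 hypoxia and 16 upstream glycolysis genes were still counted. For oxidative phosphorylation 9 and 7 were, and for the partners 6 and 5. In both of the large myeloid classes, most counted genes of the response to low oxygen were called lower with 2DG over ctrl and with aPDL1 over ctrl. In neutrophils 15 of 17 counted genes were lower with 2DG (median log2 ratio -1.46) and 12 of 17 with aPDL1 (-0.91), where 17.1% and 16.8% of all genes were. In monocytes or macrophages 14 of 19 were lower with 2DG (-0.94) and 12 of 19 with aPDL1 (-0.76), where 8.98% and 9.39% of all genes were. Egln3, a prolyl hydroxylase that hypoxia induces, was at 341 CPM in the combination, 309 CPM with 2DG and 637 CPM with aPDL1 in neutrophils, against 940 CPM in ctrl, and at 33.5 CPM in the combination, 54.3 CPM with 2DG and 101 CPM with aPDL1 in monocytes or macrophages, against 267 CPM in ctrl. Ero1l, an oxidase of the endoplasmic reticulum, was at 111 CPM in the combination, 129 CPM with 2DG and 181 CPM with aPDL1 in monocytes or macrophages, against 468 CPM in ctrl, and Adm, the hormone adrenomedullin, at 2.16 CPM in the combination, 4.42 CPM with 2DG and 3.59 CPM with aPDL1, against 13.5 CPM in ctrl. Hif1a itself, the oxygen-regulated subunit of the factor, was at 638 CPM in the combination, 664 CPM with 2DG and 703 CPM with aPDL1 in monocytes or macrophages, against 691 CPM in ctrl. The factor is controlled mainly at the protein level, which mRNA counts do not show.

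Of 16 counted genes of upstream glycolysis, 12 were called lower in neutrophils with 2DG (median -0.88) and 7 with aPDL1 (-0.56), and 0 were called higher in either, beside the 17.1% and 16.8% of all genes that were lower. Slc2a1, the glucose transporter GLUT1 that also stands on the hypoxia list, was at 276 CPM in the combination, 297 CPM with 2DG and 442 CPM with aPDL1, against 795 CPM in ctrl, and Slc2a3, the transporter GLUT3, at 117 CPM in the combination, 175 CPM with 2DG and 335 CPM with aPDL1, against 322 CPM in ctrl. Slc2a3 was called lower with 2DG both without and with aPDL1. The list was divided in monocytes or macrophages, with 5 lower and 4 higher of 19 with 2DG (-0.37) and 2 lower and 3 higher of 18 with aPDL1 (-0.28). Of all genes in that class, 8.98% were lower and 12.1% higher with 2DG, and 9.39% lower and 13.2% higher with aPDL1. Of 13 oxidative phosphorylation genes, 8 were higher and 1 lower in neutrophils with 2DG (0.72) and 7 were higher with aPDL1 (0.63), and 0 were called in monocytes or macrophages in either. In neutrophils 31.5% of all genes were higher with 2DG and 27.7% with aPDL1, with medians of 0.24 and 0.16. Ndufa4, a subunit of the respiratory chain, was at 61.3 CPM in the combination, 46.4 CPM with 2DG and 26.6 CPM with aPDL1 in neutrophils, against 21.6 CPM in ctrl. By list medians, upstream glycolysis and respiration thus stood on opposite sides of ctrl in neutrophils.

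Partners in the same steps as the 5 genes had no common direction. Bsg, which encodes basigin, the chaperone of MCT1 and MCT4, was at 156 CPM in the combination, 90.5 CPM with 2DG and 147 CPM with aPDL1 in neutrophils, against 365 CPM in ctrl, with log2 ratios of -2.01 for 2DG and -1.31 for aPDL1. Emb, which encodes embigin, another partner of monocarboxylate transporters, was at 227 CPM in the combination, 307 CPM with 2DG and 285 CPM with aPDL1, against 157 CPM in ctrl. Of the pyruvate carrier genes of the mitochondrion, Mpc2 was at 68.1 CPM in the combination, 68.4 CPM with 2DG and 74.5 CPM with aPDL1, against 39.1 CPM in ctrl, and Mpc1 was at 65.9 CPM in the combination, 94.4 CPM with 2DG and 72.3 CPM with aPDL1, against 72.8 CPM in ctrl. Slc16a6, a transporter of the same family, was at 157 CPM in the combination, 176 CPM with 2DG and 172 CPM with aPDL1, against 172 CPM in ctrl. Over the list, 3 of 12 counted partners were higher and 2 lower with 2DG, and 4 were higher and 2 lower with aPDL1. These shares lie near those of all neutrophil genes, 31.5% higher and 17.1% lower with 2DG and 27.7% higher and 16.8% lower with aPDL1. Of 18 partners counted in monocytes or macrophages, 1 was called in each direction in both comparisons. Among all genes of that class, 8.98% were lower and 12.1% higher with 2DG, and 9.39% lower and 13.2% higher with aPDL1. Bsg there was at 201 CPM in the combination, 190 CPM with 2DG and 207 CPM with aPDL1, against 295 CPM in ctrl.

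Paralogs of the enzymes took other patterns. Ldhb, the subunit that favours the return of lactate to pyruvate, was at most at 8.10 CPM in monocytes or macrophages and 1.14 CPM in neutrophils, and was at 20.3 (combination), 10.9 (2DG), 16.5 (aPDL1) and 13.4 (ctrl) CPM in CD4 T cells without Foxp3. Pdk3, another kinase of the same complex, was at 48.0 CPM in the combination, 42.6 CPM with 2DG and 42.6 CPM with aPDL1 in monocytes or macrophages, against 40.7 CPM in ctrl, so that the low Pdk1 of the combination was not matched there. Pdk4 had 0 UMIs outside monocytes or macrophages in the 10 classes.

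**Figure D4:**
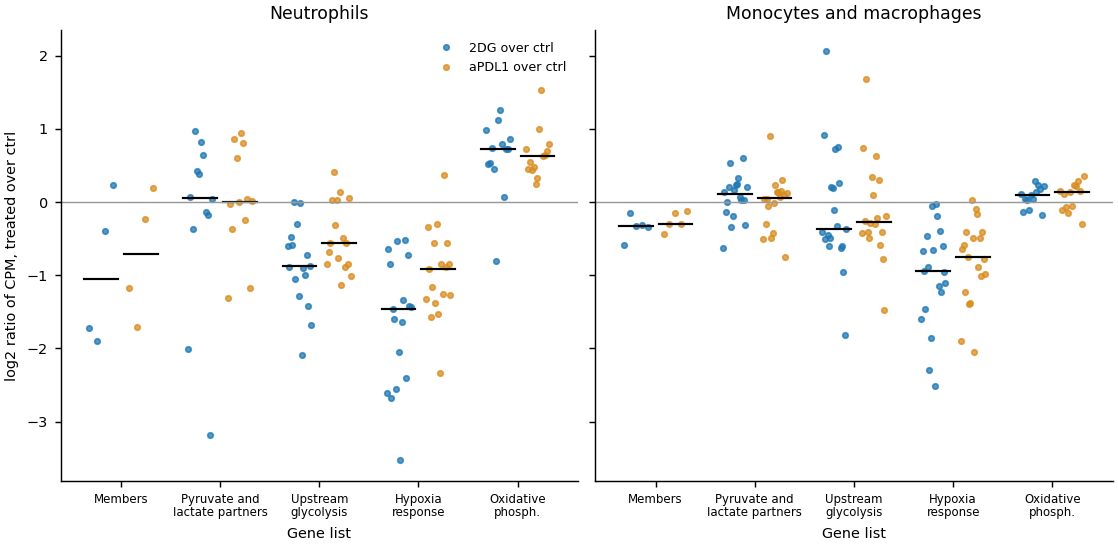
Log2 ratios of 2DG over ctrl and aPDL1 over ctrl for the 5 members and 4 gene lists in neutrophils and in monocytes or macrophages, 1 point per counted gene. In neutrophils the hypoxia list lies below 0 (medians -1.46 and -0.91), and oxidative phosphorylation above it (0.72 and 0.63).

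In CD8 T cells the combination had the least Pdk1. It was at 10.2 CPM in the combination (8.40 to 12.3, 112 UMIs), 22.6 CPM with 2DG (19.7 to 25.8, 216 UMIs) and 18.2 CPM with aPDL1 (15.7 to 20.9, 197 UMIs), against 31.0 CPM in ctrl (20.4 to 45.0, 27 UMIs). The log2 ratio was -1.14 (-1.49 to -0.81) for the combination over 2DG, and 1 of 5 members was called lower, where 5.38% of 9806 genes were lower and 4.85% higher. It was -0.83 (-1.18 to -0.49) for the combination over aPDL1, where Slc16a3 was also called, at -0.76 (-1.05 to -0.47), 2 of 5 members, where 6.05% of genes were lower and 4.88% higher. Ratios below that of Pdk1 were found in 0.938% and 1.73% of genes in these comparisons. Pdk3 was at 38.1 CPM in the combination, 43.1 CPM with 2DG and 55.5 CPM with aPDL1, against 47.0 CPM in ctrl, with the combination lowest here too. Of the hypoxia list, 6 of 14 counted genes were lower with 2DG over ctrl and 5 of 15 with aPDL1 over ctrl (medians -0.18 and -0.11), where 8.92% and 9.93% of all genes were. Egln3 was at 5.19 CPM in the combination, 13.6 CPM with 2DG and 10.3 CPM with aPDL1, against 31.0 CPM in ctrl, and P4ha1, a prolyl hydroxylase of collagen, at 67.9 CPM in the combination, 105 CPM with 2DG and 78.7 CPM with aPDL1, against 185 CPM in ctrl. Upstream glycolysis had 2 of 16 genes called lower for the combination over aPDL1, with all 16 below 0 and a median of -0.42.

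Slc16a3 in CD8 T cells was at 15 CPM in the combination, 17.9 CPM with 2DG and 25.4 CPM with aPDL1, against 26.4 CPM in ctrl, which rests on 23 UMIs in 120 cells. Ldha was at 300 CPM in the combination, 261 CPM with 2DG (251 to 272) and 308 CPM with aPDL1, against 226 CPM in ctrl (195 to 260, 197 UMIs). By these values ctrl was lowest here, though its interval overlaps that of 2DG, while it was highest in neutrophils and in the monocyte or macrophage class as a whole. Pkm was at 353 CPM in the combination, 359 CPM with 2DG and 440 CPM with aPDL1, against 378 CPM in ctrl, and Slc16a1 at 19.9 CPM in the combination, 25.2 CPM with 2DG and 22.3 CPM with aPDL1, against 28.7 CPM in ctrl. For 2DG over ctrl Slc16a3 was called lower at -0.59, with an interval of -1.19 to 0.14 that spans 0, 1 of 5 members, where 8.92% of genes were lower and 9.93% higher. For aPDL1 over ctrl Pdk1 was called at -0.79 (-1.35 to -0.13), 1 of 5, where 9.93% were lower and 12.1% higher. Summed monocyte or macrophage markers in CD8 T cells were at 360 CPM in the combination, 309 CPM with 2DG and 369 CPM with aPDL1, against 518 CPM in ctrl, and erythroid markers at 2.91 CPM in the combination, 3.35 CPM with 2DG and 2.31 CPM with aPDL1, against 47.0 CPM in ctrl, and their part was not tested.

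CD4 T cells without Foxp3 differed in detail. Pdk1 was at 24.8 CPM in the combination, 20.1 CPM with 2DG and 22.7 CPM with aPDL1, against 34.9 CPM in ctrl, and the combination over 2DG was at a log2 ratio of 0.31 (-0.20 to 0.80), beside -1.14 in CD8 T cells, a difference between classes that was not tested. Slc16a3 was at 16.9 CPM in the combination, 13.2 CPM with 2DG and 25.8 CPM with aPDL1, against 24.7 CPM in ctrl, and Ldha at 357 CPM in the combination, 255 CPM with 2DG and 290 CPM with aPDL1, against 262 CPM in ctrl. For 2DG over ctrl Slc16a3 and Pdk1 were called lower, 2 of 5, where 7.3% of genes were lower and 8.12% higher. For aPDL1 over ctrl Pdk1 was, 1 of 4, where 6.83% were lower and 8.94% higher. For the combination over aPDL1 Slc16a3 was, 1 of 4, where 7.34% were lower and 5.25% higher. For the combination over 2DG Slc16a1 was, 1 of 5, where 10.5% were lower and 6.1% higher. No member was called higher in any of these 4 pairs. Summed neutrophil markers in these cells were at 386 CPM in the combination, 149 CPM with 2DG and 309 CPM with aPDL1, against 299 CPM in ctrl, with 6, 7, 8 and 8 of 8 detected. S100a9 among them was at 4.13 CPM in the combination, 4.62 CPM with 2DG and 3.85 CPM with aPDL1, against 85.3 CPM in ctrl, and monocyte or macrophage markers summed to 107 CPM in the combination, 94.7 CPM with 2DG and 141 CPM with aPDL1, against 70.9 CPM in ctrl. The part of these in the called values was not tested. The counts behind these calls are low, with 24 to 67 UMIs for Slc16a3 and 34 to 87 for Pdk1. Slc16a1 had 30 UMIs in the combination and 85 with 2DG. Hk2, a hexokinase, was at 74.8 and 101 CPM in the 2 libraries given aPDL1 (the combination and aPDL1), against 35.1 CPM with 2DG and 51.4 CPM in ctrl.

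Emb was the 1 partner gene called higher in the combination over both 2DG and aPDL1 in T cells. It was 1 of 15 counted in CD8 T cells, where 4.85% of genes were higher over 2DG and 4.88% over aPDL1. In CD4 T cells without Foxp3 it was 1 of 13 over 2DG and 1 of 12 over aPDL1, where 6.1% and 5.25% were. A count of 1 is not set apart from shares of this size. In CD8 T cells it was at 1717 CPM in the combination, 890 CPM with 2DG and 743 CPM with aPDL1, against 1042 CPM in ctrl, with log2 ratios of 0.95 for the combination over 2DG and 1.21 over aPDL1. In CD4 T cells without Foxp3 it was at 1329 CPM in the combination, 488 CPM with 2DG and 688 CPM with aPDL1, against 629 CPM in ctrl, with 1.44 and 0.95, and in regulatory T cells at 886 CPM in the combination, 380 CPM with 2DG and 396 CPM with aPDL1, against 557 CPM in ctrl. In monocytes or macrophages it was at 354 CPM in the combination, 333 CPM with 2DG and 344 CPM with aPDL1, against 335 CPM in ctrl. The combination was thus highest in all 3 T cell classes, with no such gap in monocytes or macrophages. Bsg in CD8 T cells was at 110 CPM in the combination, 80.6 CPM with 2DG and 103 CPM with aPDL1, against 90.6 CPM in ctrl.

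Dividing T cells, taken as those with at least 3 of 5 cell-cycle markers, had more Ldha and Pkm than other T cells in every library. They numbered 136 (combination), 207 (2DG), 185 (aPDL1) and 24 (ctrl). Ldha was at 549 (combination), 468 (2DG), 553 (aPDL1) and 493 (ctrl) CPM in dividing cells, against 278 (combination), 226 (2DG), 264 (aPDL1) and 240 (ctrl) CPM in other T cells, and the log2 ratios of 0.98 (combination), 1.05 (2DG), 1.07 (aPDL1) and 1.04 (ctrl) lie close together. Pkm was at 528 (combination), 572 (2DG), 711 (aPDL1) and 609 (ctrl) CPM, against 355 (combination), 355 (2DG), 413 (aPDL1) and 366 (ctrl) CPM, with ratios of 0.58 (combination), 0.69 (2DG), 0.78 (aPDL1) and 0.74 (ctrl). Slc16a1 had ratios of 0.85 (combination), 0.78 (2DG), 0.66 (aPDL1) and 0.26 (ctrl), and Slc16a3 of 0.50 (combination), 0.91 (2DG), 1.51 (aPDL1) and 0.55 (ctrl). The interval of Slc16a1 in ctrl (-0.81 to 1.12) held both signs. So did those of Slc16a3 in the combination (-0.02 to 0.97) and ctrl (-0.28 to 1.25). Pdk1 had no common direction, at -1.02 (combination), -0.28 (2DG), 0.24 (aPDL1) and 0.09 (ctrl). In dividing monocytes or macrophages, 24 (combination), 46 (2DG), 34 (aPDL1) and 89 (ctrl) cells, Pkm was lower than in the others of the class, at -0.33 (combination), -0.46 (2DG), -0.45 (aPDL1) and -0.99 (ctrl), and so was Slc16a3, at -0.94 (combination), -0.53 (2DG), -0.45 (aPDL1) and -1.18 (ctrl). Of these dividing cells, 14 (combination), 23 (2DG), 18 (aPDL1) and 37 (ctrl) were C1q macrophages. A further 8 (combination), 21 (2DG), 16 (aPDL1) and 42 (ctrl) had C1q genes together with Spp1 and Arg1. Dividing cells thus differed from the rest of the class in state, and the part of state in these ratios was not tested.

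**Figure D5:**
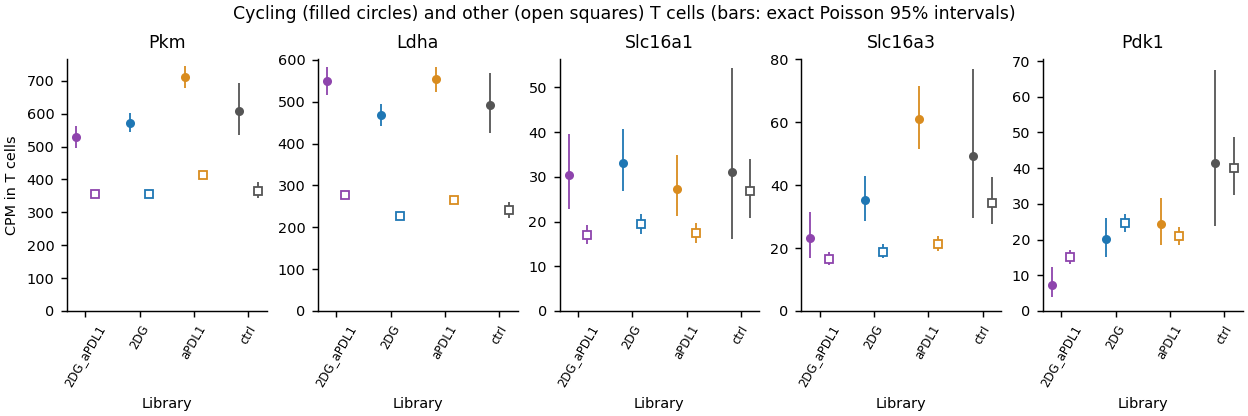
Levels of the members (CPM) in dividing T cells and in other T cells of each library, with exact Poisson 95% intervals. Ldha in dividing cells lies between 468 and 553 CPM, above the 226 to 278 CPM of other T cells.

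The pattern of each gene over classes and libraries was set against 6462 other genes, by Pearson's r of log2(CPM + 10) over 32 sums of 8 classes, which share libraries and depth, as a description. The genes most like Pkm were Aldoa (r = 0.936), Eno1 (0.929), Ldha (0.919) and Pgk1 (0.914), all of glycolysis, followed by Lilrb4a (0.912). Those most like Ldha were Pkm, Eno1 (0.914), Fxyd5 (0.910), Bsg (0.903) and Morrbid (0.899). Slc16a3 was most like Apobr (0.961) and Fnip2 (0.941), Slc16a1 most like AI504432 (0.881) and Pdk1 most like Clybl (0.819). Slc16a1 and Slc16a3 were at r = -0.27 with each other.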

How the data were processed

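Mouse cells were profiled with the 10x Chromium 3' assay in 4 libraries, 1 per group. The authors deposited counts of unique molecular identifiers (UMIs) per gene and barcode, as whole numbers without normalization. The matrix header names Cell Ranger 7.0.0, and the submitters' processing notes name Cell Ranger 3.1.0 and mm10. The sources used here do not say if intron reads were counted.

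Barcodes needed 500 or more detected genes and a mitochondrial share of 10% or less, and the highest Scrublet scores were removed at 0.8% per 1000 barcodes (scanpy 1.11.5). A cell took the lineage with the highest share of its markers detected, with at least 2 markers and a lead of 0.15 over the next lineage. A cell of the cDC1 class needed Xcr1 or Clec9a. The form of the gates was chosen after marker detection in the data was seen. UMIs were added up over the cells of a class in a library. CPM carry exact Poisson intervals, log2 ratios use counts plus 0.5, and their intervals are exact conditional binomial ones (scipy 1.17.1), all at 95% and for counting error only. With 1 library per group there was no test. Calls needed 1.5-fold and at least 50 UMIs in the higher library. The code was tested on simulated data. Members and lists were chosen with earlier results of these data known. The text names the 5 members, fixed partners in the same steps, up to 3 genes per list, direction and class past 1.5-fold in both pairs of a treatment, and the most similar genes. Every alternative changed 1 choice at a time.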

Additional observations from a re-analysis of the deposited data

How the results depend on the processing

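Of 204 alternative counts of members past 1.5-fold, 157 stayed within 1.5 times the reported count and 47 did not. Of 858 alternative log2 ratios, 787 moved by less than counting error and 71 by more, and 0 called ratios changed sign. No paired analysis was possible because each group has 1 library and the labels carry no replicate numbers, and for the same reason no replicate could be left out. The counts of 2 of 4 in neutrophils for 2DG over ctrl and aPDL1 over ctrl held under every alternative, 2-fold included. So did the count of 1 of 5 in CD8 T cells for the combination over 2DG. Ldha in neutrophils ran from -1.92 to -1.36 for 2DG over ctrl and from -1.39 to -0.88 for aPDL1 over ctrl, and Pdk1 from -2.09 to -1.54 and from -1.91 to -1.13. Pdk1 for the combination over 2DG ran from -0.85 to -0.62 in monocytes or macrophages and from -1.17 to -0.96 in CD8 T cells.

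In monocytes or macrophages the count for 2DG over ctrl was 0 in place of 1 at 2-fold, with doublets removed at 1.6%, without the Spp1 and Arg1 cells, and with states of equal weight, which was added after seeing the data. There Ldha ran from -0.71 to -0.31. For the combination over 2DG it was 0 at 2-fold, and over aPDL1 it was 0 at 2-fold and with median-of-ratios factors. In neutrophils the combination over 2DG had 1 in place of 0 with a minimum of 20 UMIs, in Leiden classes and with each cell weighing equally. In CD8 T cells 2DG over ctrl had 0 in place of 1 with 1 more marker, at 2-fold, with each cell weighing equally, with median-of-ratios factors and without dividing cells, and 2 with 5 UMIs added, in Leiden classes and without doublet removal. The combination over aPDL1 had 0 in place of 2 at 2-fold and 1 in Leiden classes, with each cell weighing equally and without dividing cells, and aPDL1 over ctrl had 0 in place of 1 at 2-fold and with each cell weighing equally and 2 with 5 UMIs added. In CD4 T cells all 4 counts fell to 0 at 2-fold, and under other alternatives they were 1 in place of 2 or 0 in place of 1. The cause was not tested. Median-of-ratios factors shifted all log2 ratios by -0.19 in neutrophils and by -0.12 in monocytes or macrophages for 2DG over ctrl, and by -0.17 and -0.11 for aPDL1 over ctrl.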

Other observations

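Classes with few cells held values outside the comparisons above. In regulatory T cells Slc16a1 was at 12.9 CPM in the combination (9 UMIs), 15 CPM with 2DG (28 UMIs) and 7.34 CPM with aPDL1 (8 UMIs), against 49.0 CPM in ctrl (22 UMIs in 55 cells). In B cells Pkm was at 107 CPM in the combination, 131 CPM with 2DG and 126 CPM with aPDL1, against 189 CPM in ctrl, and Pdk1 at 17.4, 37.7 and 21.9 CPM in those libraries, against 25.2 CPM in ctrl. Slc16a3 in B cells rested on 6, 1 and 11 UMIs, against 10 in ctrl.

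Over all barcodes of a library, before any class was given, Ldha was at 332 CPM in the combination, 327 CPM with 2DG and 376 CPM with aPDL1, against 670 CPM in ctrl, and Slc16a3 at 91.7, 94.8 and 118 CPM, against 213 CPM in ctrl. Slc16a1 was at 16.6, 17.2 and 16.9 CPM, against 17.3 CPM in ctrl. These sums hold the differences in cell make-up between the libraries as well as those within a class.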
